A study of Drosophila melanogaster with 6 samples.

Results

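The genes described here are the ecdysone receptor, its partner, and early puff genes and nuclear receptors of the metamorphosis cascade in *Drosophila melanogaster*. They are 10 genes (*EcR*, *usp*, *br*, *Eip74EF*, *Eip75B*, *Eip78C*, *Eip93F*, *Hr46*, *Hr39* and *ftz-f1*), taken by name and not by any measured value. Earlier results of these data were known when they were chosen. Each was found in 1 row of the deposited table, so 10 of its 14540 rows hold them. Of these genes, 8 have a row of their own. *usp* shares its row with *Actn*, which encodes the cytoskeletal protein alpha-actinin, and *Hr46* shares its row with *CG12912*, so neither value belongs to the named gene alone.

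The groups were S2 cells, a cultured embryonic line with hemocyte-like traits, and SIN3 187HA cells, the same line with a stable HA-tagged transgene of the short SIN3 isoform behind the copper-inducible metallothionein promoter. Total RNA was extracted, and libraries were made from mRNA purified out of it. There were 3 biological replicates in each group, and CuSO4 was given to both. The labels state 0.07 µM and 48 h, both for replicate 1 of each group only, whereas the methods of the study state the same dose figure in M. The labels call the genotype of both groups wild type. The comparison is between S2 cells and a single transgenic line, whether it is 1 clone is not given in the sources used here, and the methods name Geneticin in the medium of transfected lines, so transgene, line and medium cannot be told apart. No ecdysone treatment is named for either group.

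Ecdysone is the steroid hormone that times molting and metamorphosis in insects. It binds a heterodimer of 2 nuclear receptors, EcR and Ultraspiracle (USP), which holds target genes repressed through corepressors when the hormone is absent and activates them when it is bound. The genes that respond at once were recognised as puffs of salivary gland polytene chromosomes. They encode transcription factors that pass the signal on, and several are nuclear receptors themselves. The corepressor SMRTER, which binds EcR, has been linked to the SIN3 histone deacetylase complex. The comparison asks how these genes stood in cells with an excess of 1 SIN3 isoform, the short one. The paper reports that S2 cells mainly express the largest isoform, and that its protein was almost lost when the short isoform was overexpressed. Gain of the short isoform and loss of the largest one therefore cannot be told apart here.

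The authors deposited 1 FPKM value for every gene in each group (a fragment number corrected for transcript length and for library size), with the replicates already combined. Every level below is therefore the authors' combined value, without an SD and without a test, and no statement on the spread between replicates can be made. A change is given as log2 of the FPKM in SIN3 187HA cells over that in S2 cells after 0.1 was added to each value, so that a negative value means lower in SIN3 187HA cells. A row was called past 2-fold when this log2 value was at least 1 in size and the mean of both FPKM values was at least 1. *Sin3A*, the overexpressed gene, checks the labels: its row had 56.9 FPKM in S2 and 2319 in SIN3 187HA cells, with endogenous and transgene reads on the same row. The lowest steps in the table correspond to roughly 45.9 M fragments over the S2 libraries together and 47.6 M over the SIN3 187HA libraries. Of 7 hemocyte genes written down as markers of S2 cells, the row of *srp* and *CR44133* was at 86.9 and 77.0 FPKM, and *Hml* was below 1 FPKM in both groups. The summed level of the 7 was 1137 FPKM in S2 and 375 in SIN3 187HA cells. Of the 6 with a mean FPKM of at least 1, 4 were past 2-fold lower and 1 higher, beside 12.3% and 12.9% of all rows with such a mean. Most of the difference in the sum was *He*, a hemocyte surface gene at 766 and 72.7 FPKM, and the other 6 summed to 371 and 303 FPKM. The decrease was not confined to *He*: *Pxn* (133 and 29.3 FPKM), *Cg25C* (62.3 and 25.2) and *NimC1* (5.47 and 1.43) were also past 2-fold lower. The 1 higher row, which *ush* shares with *MED15*, was at 82.4 and 169 FPKM. Over the 6 marker rows with a mean FPKM of at least 1, the median log2 change was -1.59. Of 11 marker rows of other tissues, 7 were below 1 FPKM in both groups, and the highest was *elav*, a neuronal gene, with 2.39 and 6.74 FPKM. The part that these shifts have in the values below was not tested.

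*EcR*, which encodes the hormone-binding subunit, lies in the row at 1975378 to 2056592 on chromosome 2R of dm3. Its level was 15.4 FPKM in S2 and 10.1 FPKM in SIN3 187HA cells, a log2 change of -0.60. *EcR* thus stood at a moderate level in both groups, above 65.7% of all rows in S2 and above 60.2% in SIN3 187HA cells, and did not reach 2-fold. As in any bulk sample, fewer cells that express a gene and less RNA per cell cannot be told apart. The 24 nearest rows on the arm (12 on each side with a mean FPKM of at least 1, leaving out rows of the same locus) had a median log2 change of 0.01. Of these 24 rows, 12 were higher and 12 lower. The part of the surroundings in the change of *EcR* was not tested.

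USP is the obligate partner of EcR and the fly counterpart of the vertebrate RXR. The row that *usp* shares with *Actn*, on chromosome X from 1918789 to 1936344, had 28.8 FPKM in S2 and 24.1 FPKM in SIN3 187HA cells, a log2 change of -0.26. The contribution of *usp* to this row is not known, so the level of the receptor partner cannot be set against that of *EcR*.

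The early puff genes that are not nuclear receptors are *br*, *Eip74EF* and *Eip93F*. *br* (broad) encodes BTB zinc-finger factors that specify pupal development, in the row on chromosome X from 1417587 to 1558902. Its level was 9.71 FPKM in S2 and 8.13 FPKM in SIN3 187HA cells, a log2 change of -0.25. Its neighbours had a median of -0.12, but that median was -0.30 with 5 rows on each side and 0.10 with 25, so the place of *br* relative to its surroundings depends on the window.

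*Eip74EF*, the gene of the ETS-domain factor E74, was higher with SIN3 187HA. Its row is on chromosome 3L from 17551772 to 17612425, with 4.14 FPKM in S2 and 6.71 FPKM in SIN3 187HA cells, a log2 change of 0.69. Its surroundings had the opposite sign: 18 of the 24 nearest rows were lower, with a median of -0.43, and *Eip74EF* stood 1.12 above that median.

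*Eip93F* (E93) encodes a helix-turn-helix factor that directs adult specification and the death of larval tissues. Its row on chromosome 3R from 17774836 to 17840261 had 2.44 FPKM in S2 and 1.06 FPKM in SIN3 187HA cells, a log2 change of -1.13, just past 2-fold. The level is low in both groups, and with 1 added to the FPKM in place of 0.1 the log2 change is -0.74, under the limit. Roughly 474 to 1321 fragments in S2 and 213 to 595 in SIN3 187HA cells lie behind these values, depending on which transcript length is taken. Counting error alone at the smaller of these numbers gives an exact (Clopper-Pearson) 95% interval of -1.45 to -0.97 for the log2 ratio without a pseudocount. The neighbours of *Eip93F* had a median of 0.10, and the row lay 1.23 below that median. Its surroundings were not uniform: 5 of the 24 were past 2-fold lower and 2 higher. The 5 were consecutive kept rows on the same side, from *CG6569* (-2.47) to *CG6656* (-2.28).

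The largest level among the 10 genes in S2 cells was that of *Eip75B*, which encodes the nuclear receptor E75. E75 is a relative of the vertebrate Rev-erb receptors, carries haem and can block activation by the receptor encoded by *Hr46*. The row spans 17944053 to 18057796 on chromosome 3L. Its level was 51.9 FPKM in S2 and 23.1 FPKM in SIN3 187HA cells, a log2 change of -1.16 or 2.25-fold lower, and the call held with a pseudocount of 0 or 1 and after centring on the median of all rows. *Eip75B* was above 86.2% of all rows in S2 and above 73.7% in SIN3 187HA cells, where the shared row of *usp* stood slightly higher. Relative to *EcR* it was 3.37 times as high in S2 and 2.29 times as high in SIN3 187HA cells. Many of the surrounding rows were lower too: 16 of the 24 nearest, 6 of them past 2-fold, with a median of -0.52. *Eip75B* lay 0.64 below that median, which is less than a 2-fold difference, and the part of the surroundings in its change was not tested.

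*Eip78C* encodes E78, a receptor related to E75, and lies on chromosome 3L from 21219709 to 21259603. It had 2.27 FPKM in S2 and 1.81 FPKM in SIN3 187HA cells, a log2 change of -0.31. The direction is that of *Eip75B* at a much lower level, and the size was under 2-fold. Counting error alone, at fragment numbers estimated from the shortest transcript, gives a 95% interval of -0.56 to -0.10. That interval is for the log2 ratio without a pseudocount and holds no spread between replicates, so it does not establish the direction. Its neighbours had a median of 0.20.

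The row of *Hr46* and *CG12912* showed the highest ratio of the 10 and the lowest level in S2 cells. *Hr46*, also called *Hr3*, encodes a receptor related to the vertebrate ROR receptors that represses early genes and induces *ftz-f1* in the prepupa. The row, on chromosome 2R from 6091617 to 6124853, had 0.128 FPKM in S2 and 1.07 FPKM in SIN3 187HA cells. The log2 change was 2.36, and it was 3.06 without a pseudocount and 0.87 with a pseudocount of 1. Its mean of 0.598 FPKM is under the minimum, so the row was not counted among those past 2-fold. With the transcript lengths of *Hr46*, roughly 24 to 45 fragments in all S2 libraries stand against 205 to 393 in all SIN3 187HA libraries. The 95% counting interval at the smaller numbers is 2.43 to 3.72, for the log2 ratio without a pseudocount. This interval rests on estimated fragment numbers of a shared row, treats reads as independent and holds no spread between replicates, and the share of *CG12912* in the row is not known. The 24 neighbours had a median of 0.03, with 8 past 2-fold higher and 1 lower. With 5 rows on each side the median was 0.44. In the nearest kept loci, *KCNQ* (3.13), *CG12214* (1.79) and the row of *CG12913* and *CG12914* (3.74) were higher too. *CG18011* (-0.02) and *Syb* (-0.02) in the same loci were nearly unchanged. The part of the surroundings in the change of this row was not tested.

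*Hr39* and *ftz-f1* encode the related receptors of the NR5 type, which can bind the same DNA sites; FTZ-F1 gives prepupal tissues the competence to respond to the next ecdysone pulse. *Hr39*, on chromosome 2L from 21237250 to 21259675, had 12.8 FPKM in S2 and 18.8 FPKM in SIN3 187HA cells, a log2 change of 0.56. *ftz-f1*, on chromosome 3L from 18743707 to 18794409, had 9.22 FPKM in S2 and 12.9 FPKM in SIN3 187HA cells, a log2 change of 0.48. Both were higher and both under 2-fold. The neighbours of *Hr39* had a median of -0.16 and those of *ftz-f1* a median of 0.18. *Hr39* was 0.828 times as high as *EcR* in S2 and 1.87 times as high in SIN3 187HA cells, so their order is reversed between the groups.

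**Figure D1:**
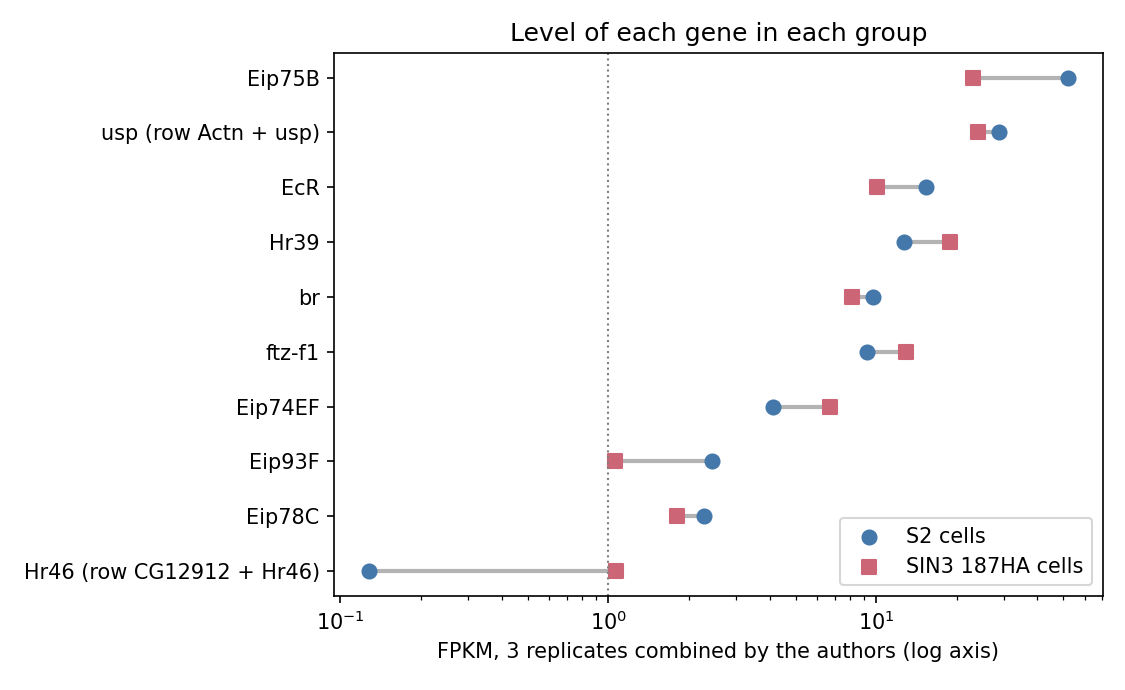
FPKM of each gene (horizontal log axis) in S2 cells (circles) and SIN3 187HA cells (squares), 1 combined value per group, with the dotted line at 1 FPKM. *Eip75B* has the highest level in S2 cells (51.9) and is at 23.1 in SIN3 187HA cells, and the shared row of *Hr46* goes from 0.128 to 1.07.

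Read as a set, the 10 rows did not move in 1 direction. In S2 cells 9 of the 10 rows, and in SIN3 187HA cells all 10, had at least 1 FPKM, and their median was 9.46 FPKM in S2 and 9.11 in SIN3 187HA cells. Of the 9 rows that passed the minimum, 2 (*Eip75B* and *Eip93F*) were at least 2-fold lower and 0 were at least 2-fold higher. Over all 8202 rows that passed it, 12.3% were at least 2-fold lower and 12.9% at least 2-fold higher. With 9 rows, the counts are close to these shares and are no result about the set. The median log2 change of the 9 rows was -0.26, beside -0.04 over all 8202 rows. The quartiles of all rows were -0.49 and 0.46, and *usp*, *br* and *Eip78C* lay between them, *EcR*, *Eip75B* and *Eip93F* below them, and *Eip74EF*, *Hr39* and *ftz-f1* above them.

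In S2 cells the order of levels ran from *Eip75B* through the shared row of *usp*, *EcR*, *Hr39*, *br*, *ftz-f1*, *Eip74EF*, *Eip93F* and *Eip78C* to the shared row of *Hr46*. In SIN3 187HA cells the shared row of *usp* came before *Eip75B*, *Hr39* and *ftz-f1* came before *EcR*, and *Eip93F* and the shared row of *Hr46* stood last with 1.06 and 1.07 FPKM. Since no spread between replicates is to be had, close neighbours in these orders, such as *br* and *ftz-f1* in S2 cells (9.71 and 9.22 FPKM), cannot be called different.

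Of the 10 genes, 4 lie on 3L, and each row was set beside its surroundings. Of the 10 rows, 3 stood at least 1 log2 unit from the median of their 24 neighbours: the shared row of *Hr46* (2.32 above), *Eip93F* (1.23 below) and *Eip74EF* (1.12 above). Each of these distances was under 1 in at least 1 of the other settings tried, the smallest being 0.84 for *Hr46*, -0.82 for *Eip93F* and 0.98 for *Eip74EF*. *Eip74EF* and *Eip75B* lie within the same stretch of 3L, with opposite signs.

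**Figure D2:**
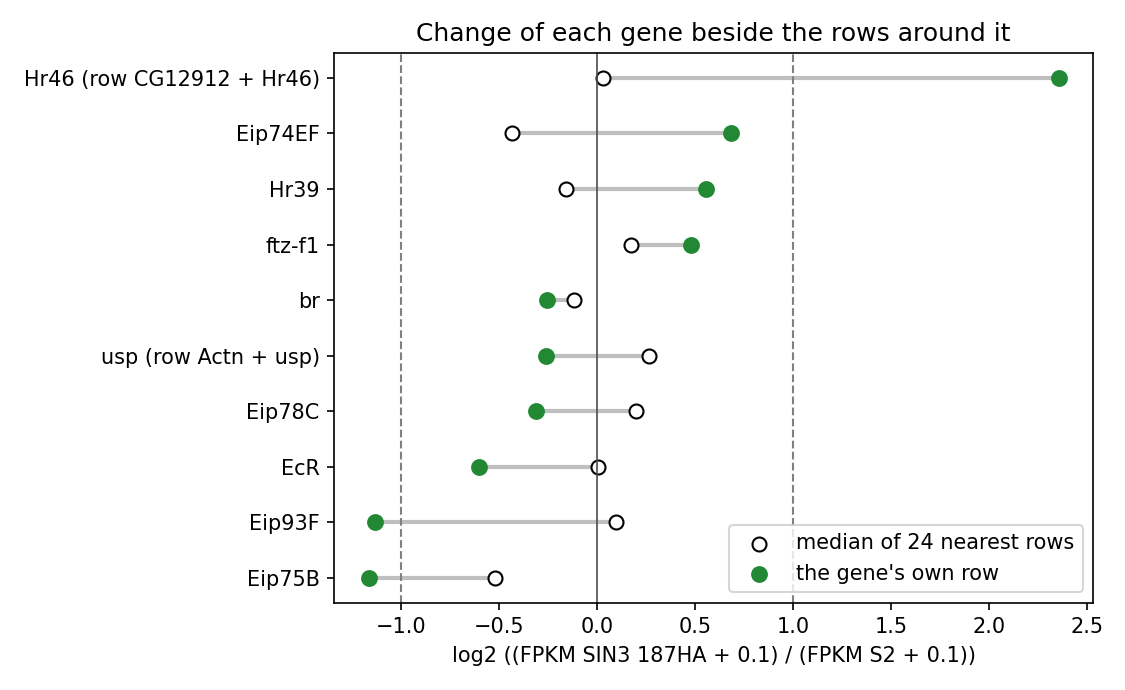
Log2 change of each gene's row (filled circles) and the median log2 change of the 24 nearest rows on its arm (open circles), with dashed lines at 2-fold. *Eip75B* (-1.16) lies on the side of its neighbours (-0.52), whereas *Eip74EF* (0.69) and its neighbours (-0.43) lie on opposite sides of 0.

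The stretch from *Oatp74D* to *ftz-f1* runs from 17480218 to 18794409 on 3L and holds 59 rows with a mean FPKM of at least 1. Of these, 13 were at least 2-fold lower and 5 at least 2-fold higher, with a median of -0.29, beside 12.3% lower and 12.9% higher over all rows and a median of 0.08 over the kept rows of 3L. The limits of the stretch were set by pathway genes, so its counts are a description. Besides *Eip74EF*, *Eip75B* and *ftz-f1*, it holds *Oatp74D*, the gene of the transporter that carries ecdysone into cells, and the death genes *W* (*hid*), *rpr* and *skl*. *Oatp74D* had 94.3 FPKM in S2 and 29.5 FPKM in SIN3 187HA cells, a log2 change of -1.68. *Eip74EF*, the closest of the early genes to it, thus differed from it in direction. *W*, a death inducer on the far side of *Eip75B*, went the other way, from 0.224 to 2.13 FPKM, and *rpr* was at 48.2 and 25.6 FPKM.

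**Figure D3:**
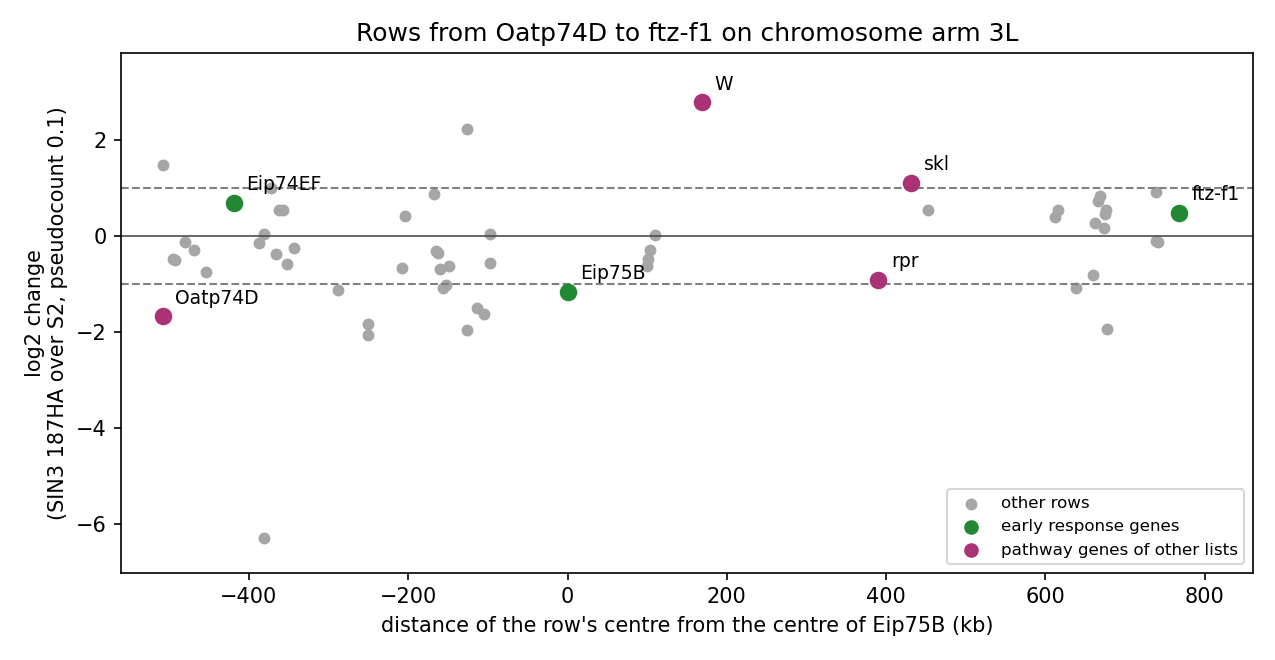
Log2 change (vertical axis) of the 59 rows from *Oatp74D* to *ftz-f1* against the distance of each row's centre from that of *Eip75B* in kb. *Oatp74D* (-1.68) and *Eip75B* (-1.16) lie below the lower dashed line of 2-fold, *W* (2.78) lies above the upper one, and *Eip74EF* (0.69) and *ftz-f1* (0.48) lie between the lines. The lowest point is a small RNA row listed at 0 in SIN3 187HA cells.

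The rest of the pathway was followed in 6 lists that matched 98 rows, of which 53 had a mean FPKM of at least 1. Among the 53, 11 were at least 2-fold higher and 7 at least 2-fold lower, beside 12.9% and 12.3% of all rows, with a median log2 change of -0.10. The lists were chosen with earlier results of these data known. Some of the 11 higher rows also lie close together, such as those of small heat shock genes named below. The counts over the 53 rows are therefore a description and no result about the pathway. The counts of the single lists below are to be read against the same shares of all rows. With 4 to 16 kept rows in a list, they are descriptions and no result about that list. Most genes of steroid synthesis were barely detected. Of 13 genes of synthesis, uptake and clearance, 9 were below 1 FPKM in both groups, among them *phm*, *dib*, *sad* and *shd*, whose products make the hormone. Past 2-fold was only *Oatp74D*, which also had the highest level of this list in S2 cells.

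The 14 cofactors and chaperones of the EcR and USP dimer were all kept, with a median of -0.27. *Smr*, the gene of SMRTER, shares its row with *CR43963* and had 116 FPKM in S2 and 24.6 FPKM in SIN3 187HA cells, a log2 change of -2.23. Its own neighbours on X had a median of -0.66, and 21 of the 24 were lower. Of these, 10 were past 2-fold lower, all on the same side of *Smr*, with log2 changes down to -2.53 for *CG4407*. The part of the surroundings in the change of *Smr* was not tested. *bon*, which encodes a TIF1-type cofactor of nuclear receptors, had 52.1 FPKM in S2 and 14.5 FPKM in SIN3 187HA cells (log2 change -1.84). *DOR*, a coactivator of EcR, went from 11.9 to 27.2 FPKM (log2 change 1.18), and the other 11 rows did not reach 2-fold. The chaperone gene *Hsc70-4* had the highest level of the list, with 2845 FPKM in S2 and 2153 FPKM in SIN3 187HA cells.

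With 14 further genes, 21 nuclear receptor rows were read in all, and 11 of these had at least 1 FPKM in both groups and 8 in neither. The 2 remaining rows crossed 1 FPKM in the same direction: that of *Hr46* and that of *Hr4*, an early-late receptor of the cascade, at 0.383 FPKM in S2 and 1.77 FPKM in SIN3 187HA cells (log2 change 1.95). The locus of *Hr4* also holds *CG4406*, at 35.3 and 24.6 FPKM, and reads where the 2 overlap cannot be told apart without strand. Among the 6 kept rows of the 14 further genes the largest change was that of *Hr51*, a receptor of neuronal development, from 1.37 to 10.3 FPKM (log2 change 2.82). Of these 6, *Hr4* and *Hr51* were past 2-fold higher and 0 lower, beside 12.9% and 12.3% of all rows, and 6 rows are too few to compare with these shares. The row of *Hr78* and *Glg1* had the highest level, at 53.9 and 74.2 FPKM.

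Of 41 symbols of other ecdysone-inducible genes, which matched 40 rows, 24 rows were below 1 FPKM in both groups and 13 of these were listed at 0 in both. The 16 kept rows had a median of 0.20, with 4 at least 2-fold higher and 2 lower (12.9% and 12.3% over all rows). The 3 largest positive changes were those of small heat shock genes: *Hsp26* went from 191 to 912 FPKM (log2 change 2.25), *Hsp23* from 309 to 785 FPKM (1.34) and the row of *Hsp22* and *Hsp67Bb* from 123 to 293 FPKM (1.26). *Hsp27*, the small heat shock gene beside them on 3L, did not share this, at 102 and 85.7 FPKM (-0.24). On the lower side were *ImpL3*, which encodes lactate dehydrogenase, from 31.0 to 4.23 FPKM (log2 change -2.85), and *Eip55E*, a gene of cysteine metabolism, from 67.1 to 25.2 FPKM (-1.41). *ImpL2*, a secreted binding protein of insulin-like peptides, had the highest level of the list, with 644 FPKM in S2 and 485 FPKM in SIN3 187HA cells.

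Juvenile hormone opposes metamorphosis in insects, and 5 of the 8 rows of its pathway were kept. *Kr-h1*, the zinc-finger gene that juvenile hormone induces, had 13.1 FPKM in S2 and 5.61 FPKM in SIN3 187HA cells (log2 change -1.20), and *Jheh1*, an epoxide hydrolase gene, went from 9.69 to 85.3 FPKM (3.13). *Jheh2*, next to it on 2R, had 132 and 111 FPKM. Of 9 genes of steroid-triggered cell death, 8 were kept. *W* (0.224 to 2.13 FPKM, log2 change 2.78), *Nc* (1.16), the gene of the initiator caspase Dronc, and *skl* (0.921 to 2.09 FPKM, 1.10) were past 2-fold higher. *th*, which encodes the caspase inhibitor Diap1 and had the highest level of the list, was lower at 364 and 130 FPKM (-1.49). Over all rows, 12.9% were higher and 12.3% lower. The other 4 kept rows were under 2-fold: *rpr* (-0.91), *Ice* (-0.73) and *Ark* (-0.43) were lower and *crq* (0.32) was higher. The median log2 change of the 8 was -0.055.

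**Figure D4:**
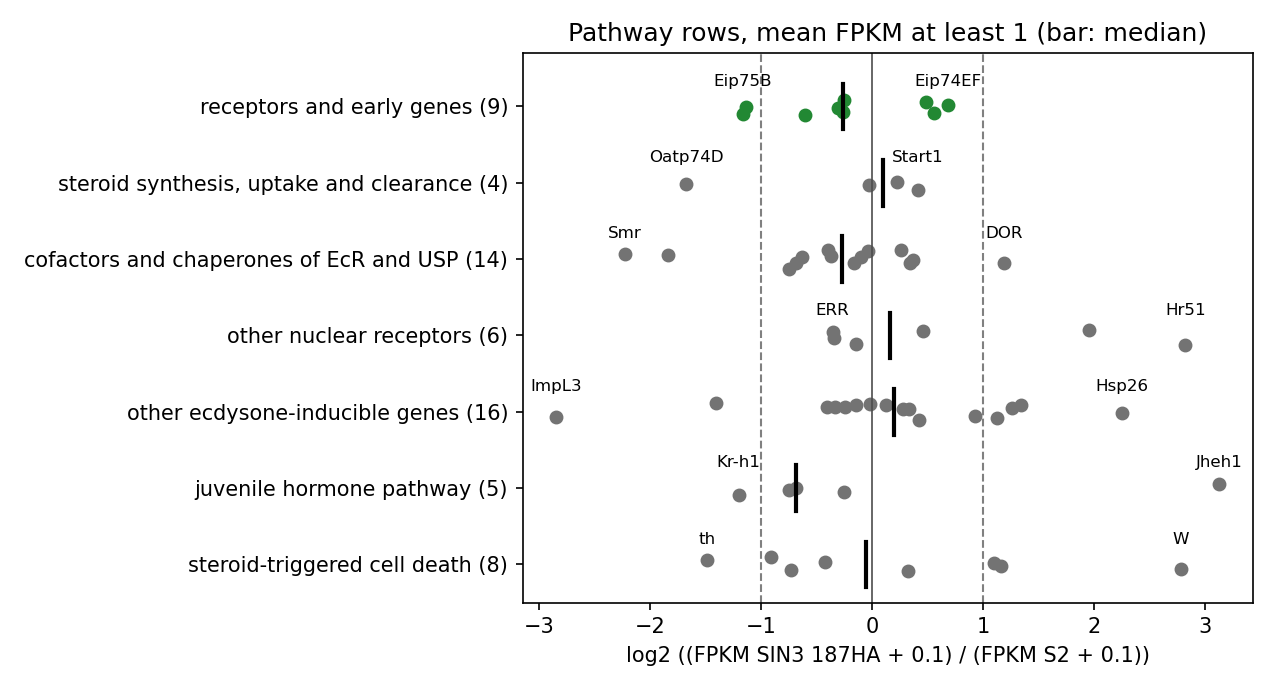
Log2 change of every kept row of the receptors and early genes (green) and of the 6 pathway lists (grey), with the number of rows in parentheses, the median as a bar and dashed lines at 2-fold. The 9 kept rows of the receptors and early genes lie between -1.16 and 0.69, inside the range of the cofactors, which runs from -2.23 for *Smr* to 1.18 for *DOR*. The shared row of *Hr46* (2.36) is under the minimum mean FPKM and is not shown.

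The rows most like *EcR*, by the distance over its 2 log2 values, were that of *CG30001* and *dila* (15.1 and 10.1 FPKM), *Aats-pro* (15.6 and 9.92 FPKM) and *CG8892* (15.0 and 10.1 FPKM). With only 2 values to compare, likeness says no more than that level and change were close.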

How the data were processed

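Libraries from mRNA of 3 replicates per group were sequenced in paired-end mode. Per the methods of the study, the authors used Bowtie2 and Tophat for alignment to dm3, Cufflinks for levels of RefSeq genes and cuffdiff for the group comparison; versions are not given in the sources used here. The library kit named does not mark strand. The authors deposited 1 table with the FPKM of each group, replicates combined. Its columns of fold change, test statistic, p and q hold the authors' own comparison and were not used. Replicate spread could not be examined.

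Computed here, with Python 3.11.15, pandas 2.3.3 and scipy 1.17.1, were log2 ratios with a pseudocount of 0.1, calls at 2-fold and a mean FPKM of at least 1, and medians of the 12 nearest kept rows on each side. Row starts were changed to count from 1. Rows that overlap share the limits of their whole locus. Depth was estimated from 108 and 76 rows at the lowest step, with transcript lengths of Ensembl BDGP6, a later build used for lengths only, and a fragment length of 200. The calculations were tested on simulated data. Members and lists were chosen with earlier results of these data known. Symbols were matched by name, then by RefSeq synonym, and the 11 genes written *Eip71EA* to *Eip71EK* were read as *Eig71Ea* to *Eig71Ek*. Named are all members, the largest changes past 2-fold (up to 3 per direction and list), the highest row of each list in S2 cells and the 3 rows nearest to *EcR*. Named after their values were seen were *rpr*, *Ice*, *Ark*, *crq*, *phm*, *dib*, *sad*, *shd*, *Hsp27*, single neighbour rows, the marker genes and the rows in the closing section.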

Additional observations from a re-analysis of the deposited data

How the results depend on the processing

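The count of early gene rows at least 2-fold lower, 2, was 1 with a pseudocount of 1, which left *Eip75B* alone. The count at least 2-fold higher, 0, was 1 without a filter and 1 with FPKM of at least 1 in either group, in each case the shared row of *Hr46*, and 1 at a 1.5-fold limit, which added *Eip74EF*. Among the other pathway rows the 7 lower ones became 14 of 53 at 1.5-fold, where 21.4% of all kept rows were lower. Over all rows under the same settings, 10.9% were lower with a pseudocount of 1. Higher were 13.2% without a filter, 14.3% with FPKM of at least 1 in either group and 21.2% at 1.5-fold. Beside these shares, the counts of genes and pathway rows are descriptions only. Under the remaining alternatives these counts stayed within 1.5 times, and no direction of a called row changed. The neighbour median of *Eip75B* ranged from -0.52 to -0.19 over the 5 settings, and *Eip74EF* stood 0.98 to 1.12 above its own. The row of *Hr46* stood 0.84 to 2.37 above the median of its neighbours and *Eip93F* 0.82 to 1.33 below that of its own (-0.82 to -1.33). No paired analysis was possible because the table holds no values per replicate, and leaving out a replicate was not run for the same reason. Depth limits the rows of *Hr46*, *Eip93F* and *Eip78C*, and several transcripts per gene make every number of fragments approximate.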

Other observations

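Rows that share a locus with the genes described here were read as well, since reads in overlapping exons cannot be told apart with a kit that does not mark strand. Of the 10 genes, 6 have such a row. Inside the locus of *EcR*, *CG14589* had 0.406 FPKM in S2 cells and 2.78 FPKM in SIN3 187HA cells, a log2 change of 2.51, opposite in sign to that of *EcR*. Inside the locus of *br*, the row that *Mur2B* shares with a small RNA gene had 1.40 and 2.48 FPKM (log2 change 0.79). Inside the locus of *Eip78C*, *CG43218* had 1.23 and 0.587 FPKM (-0.95). In the locus of *Eip75B*, *CG32192* and *CG42393* were below 1 FPKM in both groups, far under the 51.9 and 23.1 FPKM of *Eip75B*. Among the neighbours of *Eip75B*, *Prestin*, an anion transporter gene, had 135 FPKM in S2 cells and 43.5 FPKM in SIN3 187HA cells (-1.63), and *CG7408* had 3.03 and 14.5 FPKM (2.22).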
